A study of Mus musculus with 26 samples.

Results

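Livers of 2 mouse models of obesity were set against each other by sequencing total RNA. The ob/ob group were B6.V-Lepob/J mice on a normal diet, which lack functional leptin. The high-fat diet group were C57BL/6J mice on a high-fat diet, with the leptin gene intact. The comparison was therefore of genetic with dietary obesity, and strain allele and diet differ together between the groups, so their parts cannot be told apart. All libraries with total RNA from either group were taken, which was 8 of the 26 libraries of the study. The other libraries hold total RNA of C57BL/6J mice on a normal diet (wild type) and RNA from liver extracts bound to beads with an antibody against hnRNPK or with control IgG. The 4 wild-type total RNA libraries were not a side of the comparison. They served to share the estimate of the spread and to place each level. They also entered the filter on low counts, the scaling, the mean levels over 6 units and the choice of the isoform that names a cluster. Sex, age and the length of the diet are not given in the sources used here, nor is the number of animals behind a library.

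Leptin is a hormone of fat cells that restrains feeding and raises energy use through the brain. Mice without it overeat on ordinary chow and develop a fatty liver with high insulin, and they also lose the direct effects of leptin on other endocrine axes. Mice fed a high-fat diet also gain fat and store lipid in the liver, but they receive a different mix of nutrients and their leptin is present and usually raised. A gene can also respond through its isoforms, the alternative transcripts that differ in promoter, splicing or end, without a change in its total RNA.

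Each group had 4 libraries, named in the labels by a replicate number (1 or 2) and a further number (1 or 2). Both libraries that share a replicate number were summed to 1 unit, giving 2 units a group. Total counts were 25597307 to 38611819 in the ob/ob libraries and 34577549 to 41731910 in the high-fat diet libraries. Across clusters, the log2 levels of libraries (as CPM, scaled counts per 1000000 counts) correlated with Pearson's r of 0.965 to 0.977 between the groups, 0.985 to 0.988 between units of the same group and 0.989 to 0.994 within a unit. Counts within a unit differed by more than counting noise: the chi-square per degree of freedom was 81.3 and 24.6 in the ob/ob units and 5.18 and 8.50 in the high-fat diet units. The files number gene clusters and name transcripts by UCSC identifiers, and they pair neither with gene symbols. A cluster is therefore called by the identifier of its most counted isoform, its function is not given, and markers of liver or other cells could not be checked.

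At the level of clusters, more calls were lower than higher in ob/ob livers. Of 15487 clusters tested, 76 were called (0.491%; edgeR quasi-likelihood test, Benjamini-Hochberg adjusted p under 0.05). Of these, 19 were higher in ob/ob (0.123% of those tested) and 57 were lower (0.368%). The split was 562 higher and 738 lower with the 4 units of these groups only, and 603 and 830 with DESeq2. Before adjustment, p was under 0.05 for 3393 clusters, 1547 higher and 1846 lower. The median log2 fold change of all tested clusters was 0.01, but the scaling of the units places this centre near 0, so it is no check on the split. By class of level, the median was 0.30 under a log2 CPM of 0 and -0.05 from 4 to 6. Among the called clusters the median log2 fold change was 1.79 for those higher and -1.56 for those lower. A log2 difference of at least 5 (32-fold) was estimated for 1 of the 19 higher clusters and for 10 of the 57 lower ones, 6 of which belong to a single run of cluster numbers described further on. Since these are bulk livers, fewer cells of a type and less RNA per cell cannot be told apart.

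**Figure D1:**
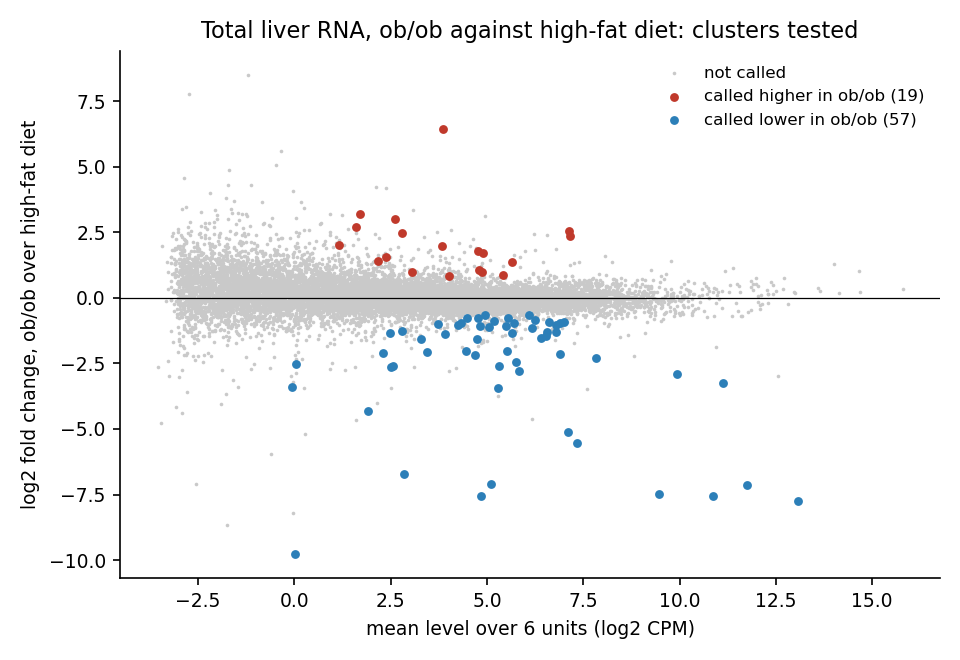
Log2 fold change of ob/ob over high-fat diet (vertical axis) against the mean log2 CPM over the 6 total RNA units (horizontal axis) for the 15487 clusters tested; CPM is scaled counts per 1000000 counts. Red points are the 19 clusters called higher in ob/ob and blue points the 57 called lower, and the blue points reach further from 0 and to higher levels than the red ones.

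Most clusters with a large estimated change were not called, and the groups separated at many clusters that were not called either. A 2-fold or larger estimate was found for 873 clusters in the higher direction (5.64%) and 331 in the lower direction (2.14%). The 4 ob/ob libraries lay entirely above the 4 high-fat diet libraries at 2754 clusters (17.8%) and entirely below at 3276 (21.2%). Of the called clusters, 18 of 19 higher and 57 of 57 lower had libraries that did not overlap, against 38.9% of all tested clusters in either direction. The calls were made on sums of these same libraries, so this separation is no separate support for them. Calls were more frequent at high levels, with 0.0344% of clusters under a log2 CPM of 0 and 1.25% of those at a log2 CPM of 8 or more. At the latter level 6 clusters were called lower and 0 higher, while 104 of these clusters had non-overlapping libraries in the higher direction and 169 in the lower.

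The clusters called lower carried far more RNA than those called higher. Together the 57 lower clusters held 0.153% to 0.198% of the counts of the ob/ob libraries, against 2.62% to 3.12% in the high-fat diet libraries. In wild-type libraries they held 2.64% to 3.31%. The 19 higher clusters held 0.0849% to 0.101% of the counts in ob/ob, against 0.0248% to 0.0276% with high-fat diet and 0.0443% to 0.0602% in wild type. Groups did not overlap for either list, which its choice by this contrast fixes. Median transcript length was 1942 nt for the higher clusters, 2067 nt for the lower and 2696 nt for all tested. A single isoform was listed for 47.4% of the higher clusters and 40.4% of the lower, beside 36.3% of all tested.

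**Figure D2:**
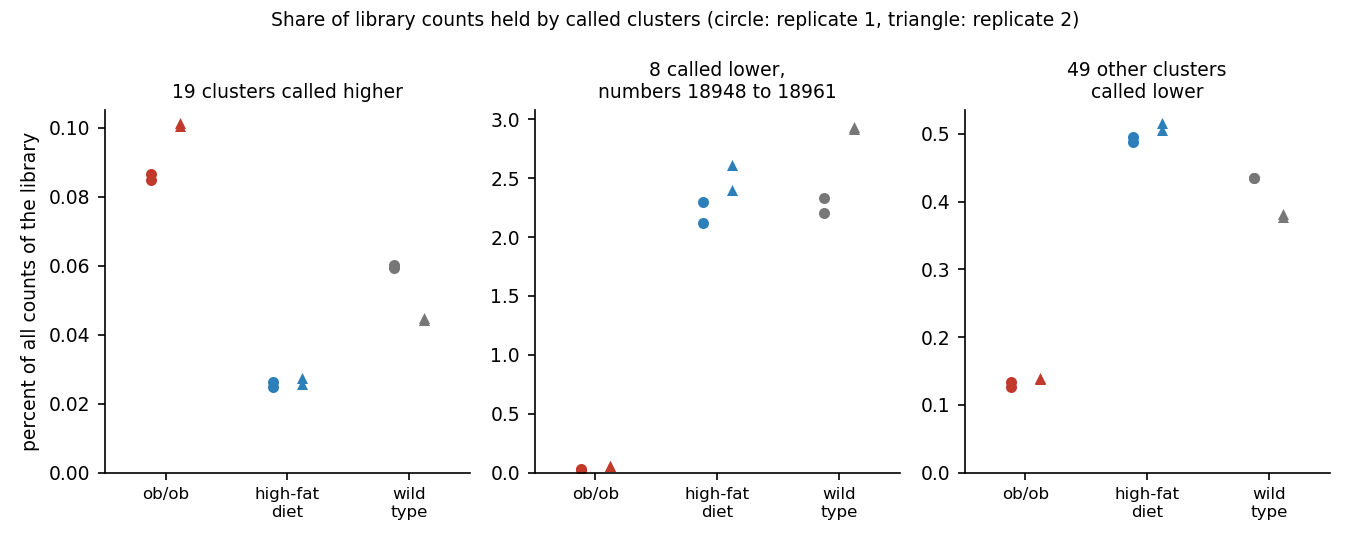
Percent of all counts of a library held by the called clusters (vertical axis, from 0), for 3 lists: the 19 called higher, the 8 called lower with numbers 18948 to 18961, and the 49 other clusters called lower. Each point is 1 library, circles for replicate 1 and triangles for replicate 2; in the middle panel ob/ob libraries sit at 0.0258% to 0.0579% and high-fat diet libraries at 2.12% to 2.61%.

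Wild-type livers stood nearer to high-fat diet than to ob/ob at most called clusters. Of the 19 higher clusters, the wild-type mean was nearer the high-fat diet mean at 17 (89.5%), and of the 57 lower clusters at 50 (87.7%), where 66.2% of all tested clusters were nearer high-fat diet. At 13 of the higher clusters wild type lay between the groups, and at 6 below both. At the lower clusters, wild type lay between the groups at 33, above both at 21 and below both at 3. These are placements of means with a pseudocount of 1 CPM, with no test.

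Among the called clusters, the largest rises in CPM were of uc007hzh.2 and uc009ghf.1, both with 1 isoform. Cluster uc007hzh.2 (1520 nt) had 237, 238, 225 and 227 CPM in the ob/ob libraries, against 31.7, 30.5, 47.3 and 48.3 CPM in the high-fat diet libraries. The groups were well apart, and the units of each group differed from one another less than the groups did. Its mean was 234 ± 9.2 CPM in ob/ob and 39.4 ± 11.9 CPM with high-fat diet (SD, n = 2 units each). Wild type had 146 ± 12 CPM, nearer to ob/ob than to high-fat diet by log2 level, unlike at 17 of the 19 higher clusters. The log2 fold change was 2.57 ± 0.22 (SE, edgeR adjusted p = 0.014). Cluster uc009ghf.1, of 394 nt, had 171, 167, 221 and 216 CPM in the ob/ob libraries, against 36.8, 40.7, 34.6 and 40.4 CPM in the high-fat diet libraries. Here the high-fat diet libraries stood apart from both other groups, since wild type had 230, 248, 144 and 150 CPM. The log2 fold change was 2.36 ± 0.26 (SE, edgeR adjusted p = 0.033). That call was lost when levels were scaled by library size only, with the replicate number as a block and when a trend with transcript length was taken out (log2 fold change 2.09). Over the 10 alternatives with all units its adjusted p was 1.00e-16 to 0.089.

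Among the called clusters, uc029uus.1 and uc008tbo.3 had the largest falls in CPM. Cluster uc029uus.1, with 12 isoforms, had 32.4, 59.1, 64.0 and 86.8 CPM in the ob/ob libraries, against 13148, 11953, 14805 and 13237 CPM in the high-fat diet libraries. No ob/ob library came near a high-fat diet library, while wild type, at 10016 to 14440 CPM, overlapped high-fat diet. The log2 fold change was -7.73 ± 0.41 (SE, edgeR adjusted p = 0.0096). Cluster uc008tbo.3, with 1 isoform of 881 nt, had 15.3, 17.7, 36.6 and 40.5 CPM in the ob/ob libraries, against 3305, 3035, 4986 and 4442 CPM in the high-fat diet libraries. Within each group, both libraries of replicate 2 were above both of replicate 1. Its log2 fold change was -7.15 ± 0.54 (SE, edgeR adjusted p = 0.0096), and wild type had a mean of 6297 ± 459 CPM (SD, n = 2).

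**Figure D3:**
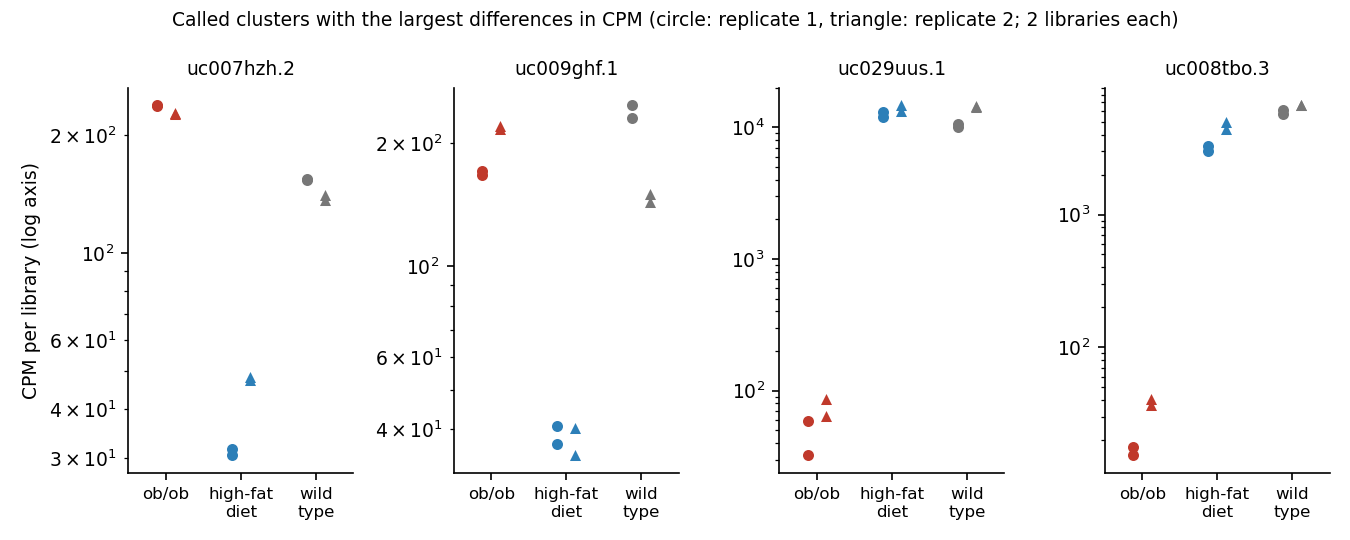
CPM per library (vertical axes, logarithmic, with a range of its own in each panel) of the 2 called clusters with the largest rises and the 2 with the largest falls in CPM, in ob/ob, high-fat diet and wild-type livers. Circles are replicate 1 and triangles replicate 2, with 2 libraries each; ob/ob libraries lie above high-fat diet libraries in the panels of uc007hzh.2 and uc009ghf.1 and below them in those of uc029uus.1 and uc008tbo.3.

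Both of these falling clusters belong to a run of neighbouring cluster numbers. The run was taken as the longest chain of clusters called lower whose numbers lie at most 5 apart. Between the numbers 18948 and 18961 the files list 14 clusters, of which 11 passed the filter on low counts. Of these, 8 were called lower, against 0.368% of all tested, but the choice of the run by its calls fixes a high share. All 11 had a negative log2 fold change. For the 8 called, log2 fold changes lay between -7.73 and -3.26, with a median of -7.30. Their summed level was 266, 329, 515 and 554 CPM in the ob/ob libraries, against 22095, 20158, 25836 and 23124 CPM in the high-fat diet libraries. Wild type had 22080 to 32164 CPM. Transcripts of the 8 clusters had a median length of 882.5 nt. The most abundant of the 3 clusters not called had 817, 979, 1693 and 1793 CPM in the ob/ob libraries, against 12358, 11179, 10009 and 9140 CPM in the high-fat diet libraries. Its groups did not overlap, and the log2 fold change was -2.99 ± 0.56 (SE, adjusted p = 0.079 by edgeR). RSEM, the program behind these counts, divides reads among transcripts that share sequence, and whether reads were exchanged among these clusters was not tested. Summed over all 11 tested clusters, the level was 1084, 1309, 2209 and 2348 CPM in the ob/ob libraries, against 34459, 31341, 35851 and 32270 CPM in the high-fat diet libraries. Exchange of reads with transcripts outside these 11 clusters was not tested either, and the choice of the run by its lower calls favours a low sum in ob/ob.

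Without that run, the losses were smaller. The 49 other clusters called lower had a median log2 fold change of -1.37 and a median length of 2248 nt. Their summed level was 1310, 1340, 1326 and 1335 CPM in the ob/ob libraries, against 4690, 4713, 5014 and 4977 CPM in the high-fat diet libraries. Wild type had 4142 to 4385 CPM, below all 4 high-fat diet libraries. Of the 76 called clusters, 14 had another call of the same direction within 5 cluster numbers, 8 in the run and 6 outside it. No rate over all clusters was computed to set beside this, so whether it is many or few was not tested.

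Isoforms were then tested one at a time. Of 30053 isoforms tested, 34 were called (0.113%; edgeR, adjusted p under 0.05), 5 higher in ob/ob (0.0166%) and 29 lower (0.0965%). Scaled by library size only, 23 isoforms were called, 0 of them higher and 23 lower. Before adjustment, p was under 0.05 for 4238. Of the 34 called isoforms, 30 (88.2%) belonged to clusters that were called themselves, and 14 lay in the run of cluster numbers 18948 to 18961. Seen from the clusters, 21 of 76 (27.6%) held a called isoform. Among the 30, 8 were the sole isoform of their cluster. In 2 of the 5 rises, uc007woz.2 and uc008drx.2, all high-fat diet libraries were listed at 0 counts. Isoform uc007woz.2 had 2.18, 2.82, 4.33 and 0 CPM in the ob/ob libraries, so an ob/ob library was also at 0. It was at 0 in a wild-type library of each unit too. Isoform uc008drx.2 had 2.34, 1.49, 3.39 and 0.230 CPM in the ob/ob libraries, and 2.38, 2.57, 0 and 3.79 CPM in wild type. Whether these zeros come from how reads were divided among isoforms was not tested.

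Among called isoforms of clusters that list more than 1, a single rise met the conditions for being named. Isoform uc008hpp.2 had 39.4, 43.8, 50.4 and 51.5 CPM in the ob/ob libraries, against 15.4, 13.7, 11.4 and 13.1 CPM in the high-fat diet libraries. It held 100% of the counts of its cluster in each unit, so this rise is that of the cluster. Its log2 fold change was 1.80 ± 0.15 (SE, edgeR adjusted p = 0.045). It was called in 6 of the 10 alternatives with all units, over which the adjusted p was 1.05e-21 to 0.18, and in none of the 4 that leave out a unit.

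Isoform uc009lyh.2 was assigned almost no counts in ob/ob livers although its cluster was not called for level. It had 1 count in the 4 ob/ob libraries, against 1514 counts in the 4 high-fat diet libraries. The ratio of high-fat diet to ob/ob was 1355 on the scale of CPM, with an exact 95% interval of 243 to 53562 that covers counting error only. Its level in the high-fat diet libraries was 11.6, 11.8, 6.81 and 8.80 CPM, and wild type had 5.49 to 10.2 CPM. It made up 0.0239% of the counts of its cluster in ob/ob, against 22.8 ± 5.7% with high-fat diet and 21.2 ± 8.1% in wild type (SD, n = 2 units each). The edgeR adjusted p was 0.037 for the isoform, and its cluster was lower by an estimate of -0.34 on the log2 scale (edgeR adjusted p = 0.14). By the test of isoform usage described further on, the cluster was called (diffSpliceDGE of edgeR, adjusted p = 3.62e-05). The deposited length of uc009lyh.2 is 5205 nt, and the other isoforms of the cluster have 5062 to 5208 nt. In ob/ob replicate 1, the first library held the 1 count. The isoform was called in 7 of the 10 alternatives with all units, with adjusted p of 4.70e-10 to 0.13, and in none of the 4 that leave out a unit.

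The other named fall was uc008taw.3, an isoform of 914 nt in the cluster of uc029uus.1. It had 0.444, 0.104, 0.242 and 0.485 CPM in the ob/ob libraries, against 204, 193, 225 and 197 CPM in the high-fat diet libraries. Its log2 fold change was -9.38 ± 0.55 (SE, edgeR adjusted p = 0.032), from 43 counts in ob/ob against 32036 with high-fat diet. It held 0.482% of the counts of its cluster in ob/ob, against 1.56% with high-fat diet. It was called in 9 of the 10 alternatives with all units, and in none of the 4 that leave out a unit (adjusted p up to 0.28).

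Isoform usage was then compared, which is the share of the counts of a cluster that goes to each isoform. Of 7741 clusters with at least 2 tested isoforms, 29 were called (0.375%; diffSpliceDGE of edgeR with Simes' method, adjusted p under 0.05), and 421 had an unadjusted p under 0.05. On simulated counts this test called unchanged clusters more often than its threshold allows. In 8 of the 29 the isoform with the lowest p was listed at 0 in the 4 ob/ob libraries, in 10 it was listed at 0 in the 4 high-fat diet libraries, and in 11 it had counts in both groups. Some of the isoforms at 0 in the 4 high-fat diet libraries were also at 0 in an ob/ob library. The same isoform held the largest share in both groups in 27 of the 29. The largest shift of share in a cluster was between 0.678 and 32.2 percentage points, with a median of 10.4, and it reached 10 points in 15 clusters. A call of level and a call of usage met in 1 cluster.

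The largest shifts of share were within 1 cluster, numbered 20945, whose level was 42.6 CPM in ob/ob and 43.0 CPM with high-fat diet. Isoform uc008xsj.2 (4897 nt) held 68.1%, 78.5%, 68.2% and 75.6% of the counts of the cluster in the ob/ob libraries, against 43.4%, 30.4%, 49.0% and 40.3% in the high-fat diet libraries. Isoform uc008xsh.2 (4819 nt) held 22.6%, 17.7%, 27.1% and 21.7% in the ob/ob libraries, against 51.3%, 58.6%, 45.9% and 50.6% in the high-fat diet libraries. On unit means the leading isoform was thus uc008xsj.2 in ob/ob and uc008xsh.2 with high-fat diet, and the groups did not overlap for either. By unit means the shares differed by 32.2 points for uc008xsj.2 and by -29.5 points for uc008xsh.2 (edgeR usage test, adjusted p = 0.038 for the cluster). For uc008xsh.2 wild type overlapped both groups, with 25.2% to 59.3%. For uc008xsj.2 it had 34.4% to 67.9%, which overlapped high-fat diet and lay below all ob/ob libraries, if narrowly. The wild-type libraries of replicate 1 alone were at 34.4% and 67.9% for uc008xsj.2. As a share of the deposited TPM, which accounts for length, the difference was 29.8 points for uc008xsj.2 and -22.7 points for uc008xsh.2. The usage call held in 5 of 15 alternatives (adjusted p 0.0064 to 0.48), but not with limma on the logit of shares or without any of the 4 units.

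In the cluster numbered 10305, which was not called by level, an isoform held a far smaller share in ob/ob. Isoform uc012acf.1 held 2.32%, 3.21%, 3.84% and 5.00% of the counts of the cluster in the ob/ob libraries, against 25.3%, 26.4%, 31.7% and 30.3% in the high-fat diet libraries. Wild-type libraries had still more, at 34.5% to 56.4%. The difference was -24.8 points (edgeR usage test, adjusted p = 0.0058 for the cluster). Levels of the whole cluster were 583 CPM in ob/ob and 638 CPM with high-fat diet, and the log2 fold change was -0.12 ± 0.13 (SE, adjusted p = 0.65 by edgeR). The leading isoform of these groups held 76.4 ± 0.26% in ob/ob and 54.3 ± 1.3% with high-fat diet (SD, n = 2 units each). In the wild-type units it held 45.1% and 33.3%, against 34.8% and 55.9% for uc012acf.1, so the lead differed between them. The usage call held in 10 of 15 alternatives (adjusted p 4.22e-11 to 0.23), but not with limma on the logit of shares or without any of the 4 units.

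The cluster of uc009fgb.2, numbered 24297, was the 1 called both ways. Its level was 55.7 CPM in ob/ob and 275 CPM with high-fat diet, and 349 CPM in wild type. The log2 fold change was -2.29 ± 0.17 (SE, edgeR adjusted p = 0.0096). Of its counts, uc009fgb.2 held 97.0%, 95.4%, 96.8% and 97.4% in the ob/ob libraries, against 71.0%, 72.5%, 74.9% and 73.3% in the high-fat diet libraries. The remainder was mainly a further isoform, at 2.12 ± 1.6% in ob/ob and 25.4 ± 1.7% with high-fat diet (SD, n = 2 units each), and that isoform had the lowest p of the cluster. The edgeR usage test gave an adjusted p of 0.013 for the cluster. It held in 10 of 15 alternatives, with adjusted p of 1.48e-09 to 0.20, but not without either high-fat diet unit. The share of uc009fgb.2 was therefore larger by 23.6 points in livers where its own cluster was lower.

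**Figure D4:**
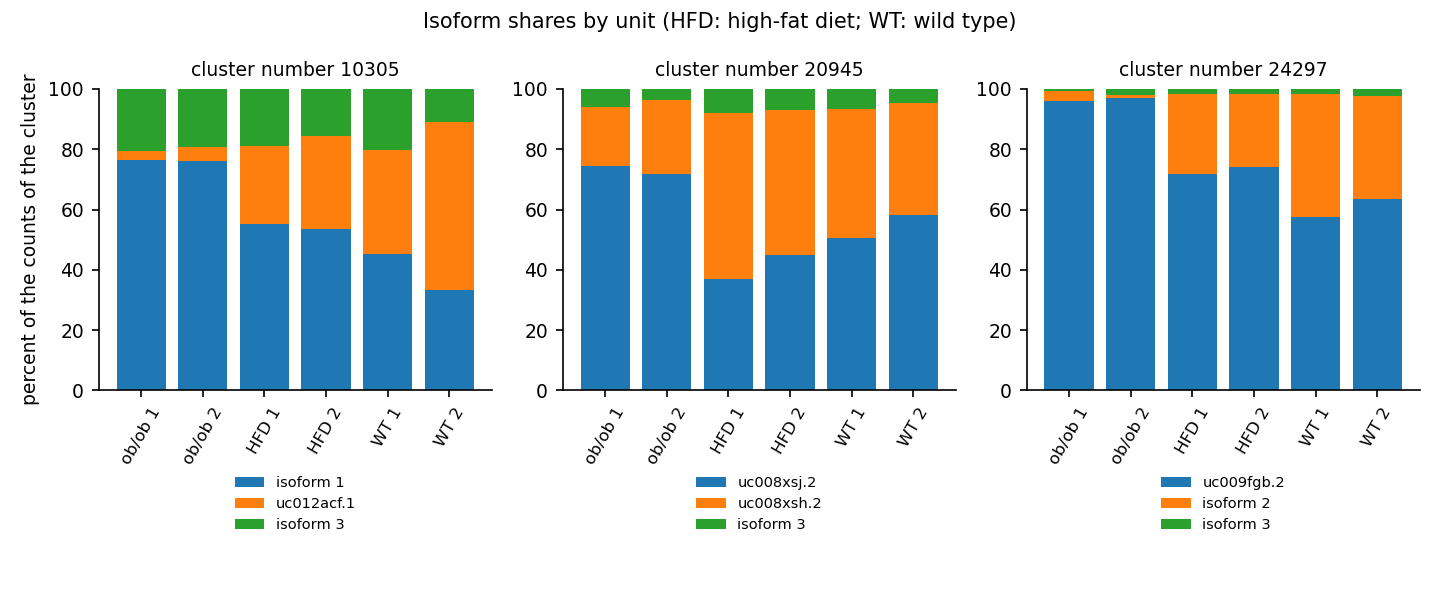
Percent of the counts of a cluster held by each of its isoforms (vertical axes, stacked to 100) in each unit of ob/ob, high-fat diet (HFD) and wild-type (WT) livers, for the 3 clusters with the named shifts of usage. In the cluster of uc008xsj.2 and uc008xsh.2 the leading isoform differs between ob/ob and high-fat diet, while in the other panels an isoform that does not lead in these groups is at 2.12% and 3.64% in ob/ob, on the mean of both units, against 25.4% and 28.5% with high-fat diet.

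Fold changes also moved with transcript length over all clusters tested. The median log2 fold change of ob/ob over high-fat diet was 0.24 for the 179 clusters under 500 nt, -0.01 for the 6406 clusters from 2000 to under 4000 nt, and -0.14 for the 529 clusters of 8000 nt or more. In clusters under 500 nt the median deviation from the mean of the 8 libraries was 0.25, 0.21, 0.06 and 0.04 log2 CPM in the ob/ob libraries, against -0.16, -0.13, -0.11 and -0.07 log2 CPM in the high-fat diet libraries. Both libraries of ob/ob replicate 1 were furthest from the mean, and the ob/ob units differed from each other by 0.17 in this class. With a trend on length taken out of each unit, an alternative chosen after seeing the data, 61 clusters were called, and 55 of them were among the 76. Of the named clusters uc009ghf.1, the shortest, was lost.

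**Figure D5:**
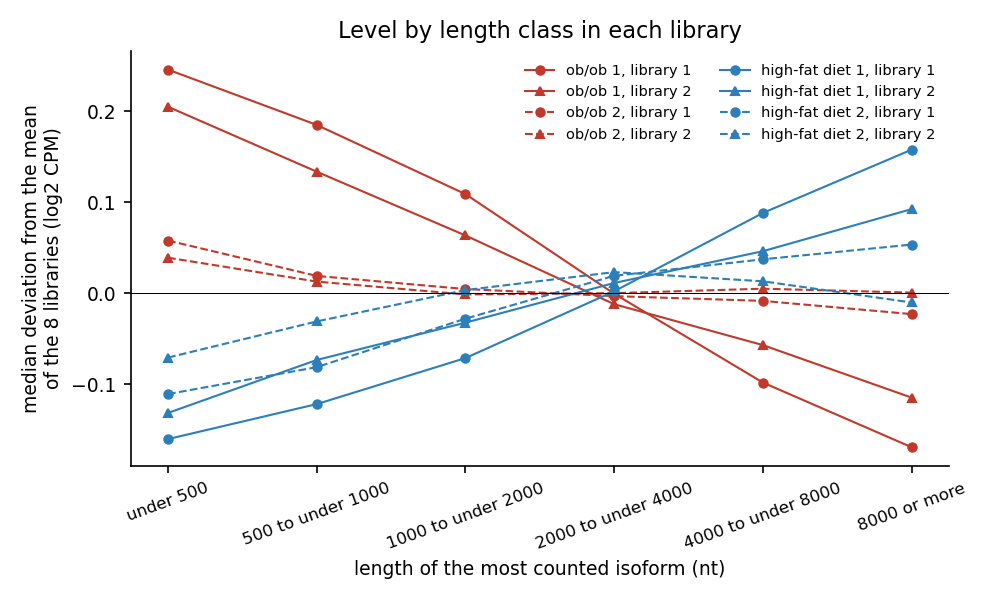
Median deviation of a library from the mean of the 8 libraries, in log2 CPM (vertical axis), for clusters grouped by the length of their most counted isoform in nt (horizontal axis). Red lines are ob/ob and blue lines high-fat diet libraries, solid for replicate 1 and dashed for replicate 2; at under 500 nt the ob/ob libraries lie between 0.04 and 0.25 and the high-fat diet libraries between -0.16 and -0.07.

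The calls of level rest on the units of both groups. The libraries of 18 of the 19 higher and of all 57 lower called clusters did not overlap. A kept sign of a call is therefore largely fixed by its choice on these same libraries, and is no separate support. Without either ob/ob unit 0 clusters and 0 isoforms were called by edgeR, though all 76 clusters and 34 isoforms kept the sign of their log2 fold change. Without either high-fat diet unit 0 isoforms were called as well. Without high-fat diet replicate 1 there were 7 cluster calls, and without replicate 2 there were 12, of which 6 were among the main calls both times, all of them lower in ob/ob. Cluster uc029uus.1 was among these 6, with edgeR adjusted p of 0.042 and 0.040, within 9.14e-188 to 0.14 over its 14 alternatives. Of the other named clusters, uc007hzh.2 was called without high-fat diet replicate 2 but not without replicate 1, and uc008tbo.3 and uc009ghf.1 were called in neither. DESeq2, which takes a spread for each cluster or isoform in another way, called 1433 clusters (9.82% of those with an adjusted p) and 1886 isoforms (6.66%). With 2 units a group an exact two-sided permutation test of 1 cluster cannot go below p = 0.333, so each call draws on the spread shared across clusters.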

How the data were processed

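A TruSeq RNA kit was used to make libraries of total mouse liver RNA, per the labels' protocols, and no source used here gives the strandedness. The authors deposited 1 table per library, with expected counts, TPM and a length made by RSEM for each of 59121 transcripts in 31469 clusters. The submitters' processing notes name RSEM 1.2.8, TopHat2 2.0.10, Bowtie2 2.1.0 and genome build mm10, with no roles. TPM, as deposited, was used only to check shares; the deposited length is in nt.

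Expected counts were summed per cluster and over both libraries of a replicate number, then rounded. The labels call these libraries neither runs nor separate animals, and the p-values therefore cover the spread among these samples alone, which may be technical. The quasi-likelihood test of edgeR 4.0.16 (R 4.3.3, limma 3.58.1) was fitted on 6 units (ob/ob, high-fat diet and wild type) with TMM scaling, filterByExpr and Benjamini-Hochberg adjustment at 0.05; diffSpliceDGE tested usage. DESeq2 1.42.0 was an alternative. Standard errors come from dividing the size of a log2 fold change by the root of F. CPM per unit or library is TMM-scaled. The main edgeR tests of clusters, isoforms and usage, and limma on the logit of shares, were tried on simulated counts. The other alternatives were not.

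The comparison, lists and tests were chosen with earlier results of these data known. Named clusters were called, had libraries that did not overlap, reached 1 in mean log2 CPM, and ranked first by difference of mean CPM. Isoforms ranked by log2 fold change and usage by difference of share. At most 2 in each direction are named, since 0 identifiers matched in 13 reference tables. Gene lists and cell type markers were not analysed here for that reason. Libraries of bound RNA were not used.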

Additional observations from a re-analysis of the deposited data

How the results depend on the processing

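Each count below is of clusters called, then isoforms called, then clusters called for usage, from 76, 34 and 29. They were 49, 23 and 27 by library size only; 144, 36 and 29 with no filter; 64, 57 and 17 with a mean of at least 1 CPM; and 1300, 13 and 58 with the 4 units of these groups only. With libraries as replicates they were 4885, 3913 and 87. Without the first library of ob/ob replicate 1 they were 82, 15 and 39. DESeq2 called 1433 clusters (603 higher, 830 lower; 9.82% of those with an adjusted p) and 1886 isoforms. Usage gave 112 calls with the F test over isoforms, 3 with isoforms of at least 10% of their cluster, and 57 with limma on the logit of shares, of which 11 were among the 29. Leaving out 1 unit gave 0 to 12 clusters, 0 isoforms each time and 2 to 26 usage calls. Size factors of DESeq2 and the length trend moved no count by over 1.5 times. The share of higher calls was 25% of 76 clusters, 43.2% with 4 units only, 46.8% with libraries as replicates and 42.1% with DESeq2; of isoforms it was 14.7% of 34, 43.1% with DESeq2 and 44.8% with libraries as replicates. Every called cluster and isoform with a value kept its sign in every alternative run, which their choice on these same libraries largely fixes. Of the 76 clusters, 29 (7 higher and 22 lower) passed in all 10 alternatives that keep all units, among them uc007hzh.2, uc029uus.1 and uc008tbo.3. The share difference of uc008xsh.2 was -22.7 points from TPM, in place of -29.5. The cause of these shifts was not tested.

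With the replicate number as a block, 33 clusters (9 higher, 24 lower), 5 isoforms and 7 usage clusters were called. Deviations of same-numbered ob/ob and high-fat diet units correlated with r of -0.02, so the numbers were not taken to pair the samples.

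The lists of genes planned as alternatives were not run, since 0 identifiers matched a symbol. An isoform listed at 0 counts in a group is limited by depth, and up to 3 counts are compatible with it, by counting error only.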

Other observations

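A pair of called clusters whose numbers lie 4 apart went in opposite directions. The pair was chosen after its values were seen. The higher of them had 28.3, 33.5, 51.8 and 54.1 CPM in the ob/ob libraries, against 0.455, 0.609, 0.380 and 0.502 CPM in the high-fat diet libraries, the largest log2 fold change among the 19 called higher at 6.45 ± 0.49 (SE, edgeR adjusted p = 0.0096). The other had 0 counts in the 4 ob/ob libraries, against 228 counts in the high-fat diet libraries at 1.31, 1.29, 1.78 and 1.48 CPM (edgeR adjusted p = 0.039). It was the only called cluster with no count in ob/ob.

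Libraries of the same ob/ob unit divided the counts of a cluster differently at the called cluster with the largest fall in CPM. The most counted isoform of the cluster of uc029uus.1 held 37.5% and 59.6% of its counts in the libraries of ob/ob replicate 1 and 26.5% and 48.9% in those of replicate 2, against 68.2%, 69.3%, 68.4% and 70.0% in the high-fat diet libraries. At 192 clusters, 2 or more tested isoforms had non-overlapping libraries in opposite directions, most of them with no call of usage; 23.6% of all tested isoforms had non-overlapping libraries in either direction.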
